A study of Drosophila melanogaster with 18 samples.

Results

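The genes described here encode the receptor for the steroid hormone ecdysone, a coactivator of that receptor and genes that respond to the hormone: EcR, usp, tai, Eip74EF, Eip75B, Eip63E, ftz-f1, Hr39 and Hr4. They were followed on 18 Affymetrix Drosophila Genome 2.0 arrays of ovary RNA from Drosophila melanogaster females. Members were the probe sets whose platform annotation names only 1 of these 9 genes. That gave 13 of 18769 tested probe sets and 7 genes of the 11952 measured. No probe set carried the name of Eip74EF or Eip75B alone, so both are not analysed here.

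The 6 groups of 3 arrays each differed in genotype and temperature. RpII2154/FM7;Marcal1del/del females at 20 °C carry a deletion in both copies of Marcal1 together with the RpII2154 allele of the gene for the largest RNA polymerase II subunit, kept over the X-chromosome balancer FM7. RpII2154/FM7 females at 20 °C carry the polymerase allele over the balancer without the deletion. Marcal1del/del females at 25 °C and at 20 °C carry the deletion alone. The yw strain, named for mutations in the visible markers yellow and white, was sampled at 25 °C and at 20 °C and served as the control. The submitters regard 25 °C as heat stress relative to 20 °C. Marcal1 encodes the fly counterpart of SMARCAL1, a DNA strand-annealing helicase, and the series title names disturbances of gene expression as its question. The replicates are described as biologically independent. Fly age, the number of ovaries pooled and any genetic background shared by the stocks are not given by the labels used here, so each genotype difference is one between stocks. The arrays' names form separate series for the 12 yw and Marcal1del/del arrays and for the 6 arrays with RpII2154/FM7, so array series and RpII2154/FM7 cannot be told apart.

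As background, ecdysone is made from dietary sterol by a chain of enzymes, enters cells and is turned into its active form. It binds a heterodimer of the nuclear receptors EcR and Usp, which then recruits coactivators such as Taiman to target genes. Early response genes, many of them transcription factors, carry the signal on to later genes. In the ovary the pathway is known for roles in germline stem cells, follicle cells, the migration of border cells and the passage of egg chambers into yolk uptake.

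Values are log2 intensities after RMA normalization, so a log2 difference of 1 is a factor of 2 in normalized intensity, and levels of different probe sets cannot be set against each other. A probe set was called when limma's test, adjusted over all 18769 probe sets of a comparison by the Benjamini-Hochberg method, gave an adjusted p under 0.05. RMA gives all arrays a common distribution, and array medians lay between 4.08 and 4.20. Marcal1 itself, on chromosome arm 2L, was at 5.41 to 6.12 in RpII2154/FM7;Marcal1del/del against 7.56 to 7.94 in RpII2154/FM7. It was at 5.94 to 6.19 in Marcal1del/del against 7.83 to 8.27 in yw at 25 °C, and at 5.85 to 5.90 in Marcal1del/del against 7.53 to 8.48 in yw at 20 °C. Arrays of a group correlated at 0.986 to 0.997 over all probe sets. Of the markers, germline genes averaged 9.38 to 9.66 on every array, while late follicle cell eggshell genes ranged from 8.31 to 12.76 within the RpII2154/FM7 group alone. The 3 arrays that stand apart from their groups on eggshell or muscle genes are RpII2154/FM7 replicate 3, yw replicate 1 at 25 °C and yw replicate 1 at 20 °C. The calls on tai and Eip63E given below were also made when these 3 arrays were left out together.

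The members that changed were tai and Eip63E. Expression of tai was lower by a factor of 2.09 and that of Eip63E by a factor of 1.77 in RpII2154/FM7;Marcal1del/del than in RpII2154/FM7 ovaries. These were 2 of 13 member probe sets, where 1.88% of all probe sets were called in that comparison and 0.943% were called as lower. Between Marcal1del/del and yw the Eip63E difference was -0.53 at 25 °C and -0.47 at 20 °C, and neither was called. The receptor genes EcR and usp, and the nuclear receptor genes ftz-f1, Hr39 and Hr4, were not called in any of the 9 comparisons.

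**Figure D1:**
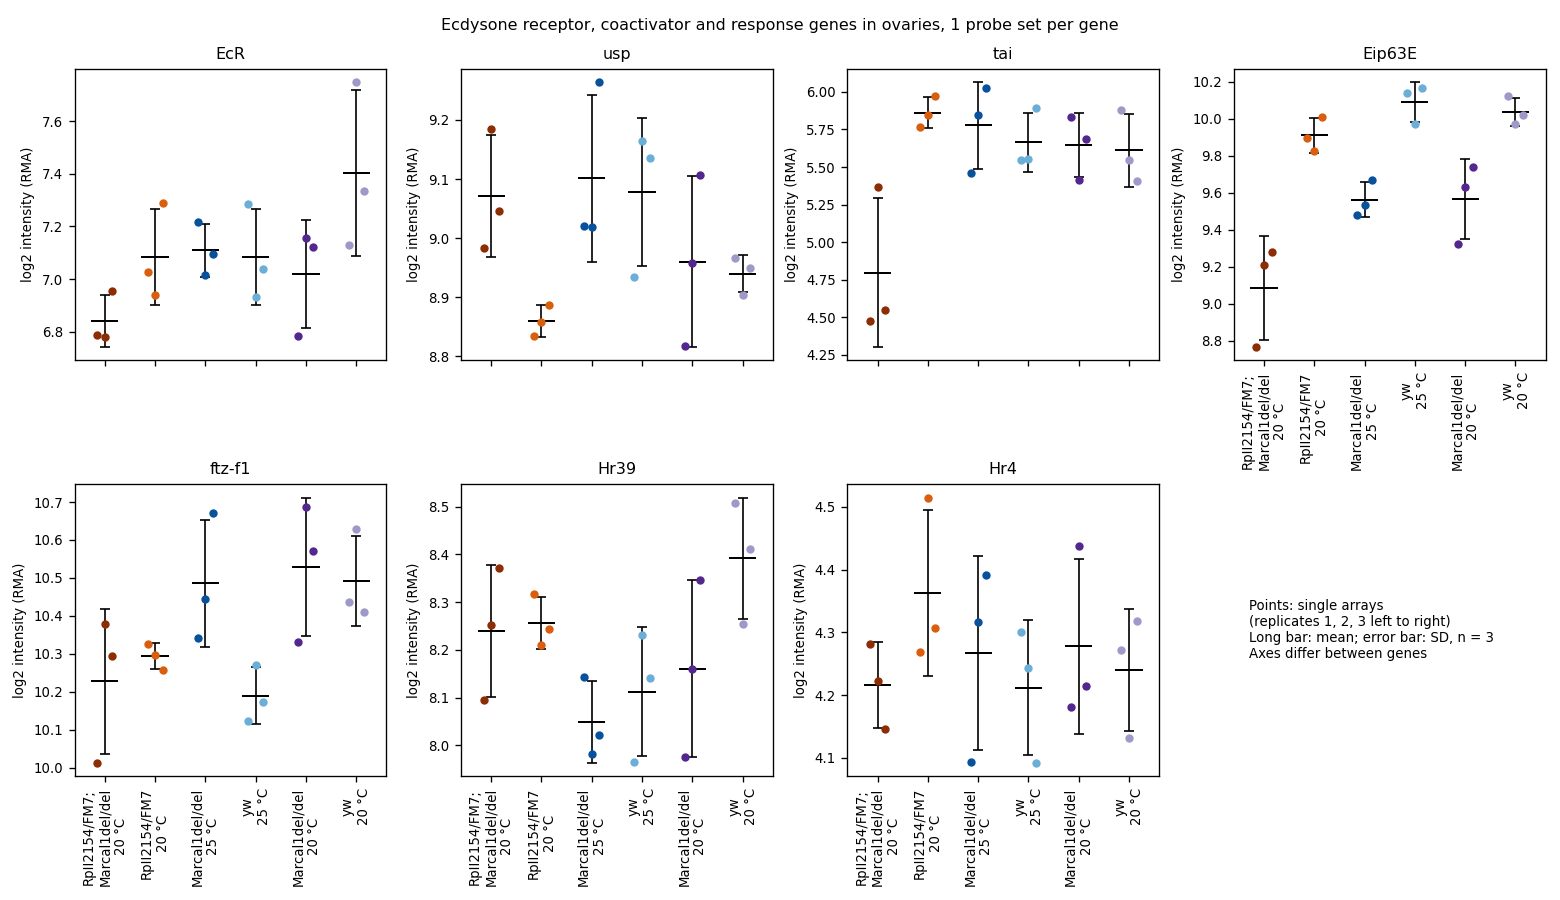
The log2 RMA intensity (vertical axes, which differ between genes) of the probe set with the highest mean for each of 7 genes is plotted for each array by group, with points for arrays, long bars for means and error bars for SD (n = 3). In the tai panel the RpII2154/FM7;Marcal1del/del arrays lie at 4.48 to 5.37. In the Eip63E panel every array with the deletion, with or without RpII2154/FM7, lies at or under 9.74.

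EcR, on arm 2R, encodes the subunit of the receptor that binds the hormone, and it was measured by 1 probe set. Its log2 level was 6.79, 6.78 and 6.96 in RpII2154/FM7;Marcal1del/del, against 7.03, 6.94 and 7.29 in RpII2154/FM7. In Marcal1del/del it was 7.22, 7.02 and 7.09 at 25 °C, against 7.28, 6.93 and 7.04 in yw at 25 °C. At 20 °C it was 6.78, 7.16 and 7.12 in Marcal1del/del, against 7.13, 7.75 and 7.34 in yw. Adjacent group ranges overlapped throughout when the groups were ordered by mean, with RpII2154/FM7;Marcal1del/del lowest (6.84 ± 0.10, SD, n = 3) and yw at 20 °C highest (7.40 ± 0.32). The difference of Marcal1del/del minus yw at 20 °C was -0.38 ± 0.15 (SE), with an adjusted p of 0.476 from limma. At 25 °C the same difference was 0.02 ± 0.15 (adjusted p = 0.996), and the test of whether the 2 temperature effects differed gave 0.41 ± 0.22 (adjusted p = 1).

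The X-linked gene usp encodes Ultraspiracle, the heterodimer partner of EcR and the fly counterpart of the retinoid X receptors. Its single probe set read 8.98, 9.19 and 9.05 in RpII2154/FM7;Marcal1del/del and 8.83, 8.86 and 8.89 in RpII2154/FM7. The level was 9.02, 9.02 and 9.26 in Marcal1del/del and 8.93, 9.16 and 9.14 in yw at 25 °C, and 8.82, 8.96 and 9.11 in Marcal1del/del and 8.97, 8.90 and 8.95 in yw at 20 °C. All 6 group means lay between 8.86 and 9.10. The RpII2154/FM7;Marcal1del/del arrays lay above the RpII2154/FM7 arrays without overlap, but the difference of 0.21 ± 0.10 (SE) did not pass the test over all probe sets (adjusted p = 0.268 from limma). The 95% interval of that difference, 0.00 to 0.42, bounds how far the usp level could lie above that of RpII2154/FM7.

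Taiman, encoded by tai on arm 2L, is a coactivator of the p160 family that binds the receptor in the presence of hormone and is required in border cells of the egg chamber for their migration. Its probe set read 4.48, 5.37 and 4.55 in RpII2154/FM7;Marcal1del/del, against 5.77, 5.85 and 5.97 in RpII2154/FM7. In Marcal1del/del it read 5.46, 5.84 and 6.03 at 25 °C, against 5.55, 5.55 and 5.89 in yw at 25 °C. At 20 °C it read 5.83, 5.41 and 5.69 in Marcal1del/del, against 5.88, 5.55 and 5.41 in yw. All 3 RpII2154/FM7;Marcal1del/del arrays lay below all 15 other arrays, with replicate 2 closest to them. The set lay above the array median on all 18 arrays. Medians of the RpII2154/FM7;Marcal1del/del arrays were 4.08 to 4.12, not far below tai in replicates 1 and 3. This limits how well the size of the tai differences is known. Ordered by mean, the other 5 groups ran from 5.61 to 5.86 with overlapping ranges between neighbours, and the step down to RpII2154/FM7;Marcal1del/del (4.80 ± 0.50, SD, n = 3) was 0.81.

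The tai level fell by 1.06 ± 0.21 (SE) on the log2 scale in RpII2154/FM7;Marcal1del/del relative to RpII2154/FM7, with a 95% interval of -1.51 to -0.62 and an adjusted p of 0.0161 from limma. The call was lost without RpII2154/FM7;Marcal1del/del replicate 1 (difference -0.90, adjusted p = 0.0811) or replicate 3 (-0.94, 0.0632), and with only the 6 arrays of both groups in the fit (-1.06, 0.09). Against Marcal1del/del at 20 °C, tai fell by 0.85 ± 0.21 in RpII2154/FM7;Marcal1del/del, a factor of 1.80 (adjusted p = 0.0354). It was the only 1 of the 13 probe sets called there, in a comparison that called 3.85% of all probe sets and 1.68% as lower, and it shares its RpII2154/FM7;Marcal1del/del arrays with the other comparison. That second call was lost without Marcal1del/del replicates 1, 2 or 3 at 20 °C (adjusted p = 0.112, 0.0519 and 0.0823) and without RpII2154/FM7;Marcal1del/del replicates 1 or 3 (0.128 and 0.116). It was also lost with only the 6 arrays of both groups (0.109) and with each array centred on its median (0.0592).

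With neither mutation alone was a difference in tai called. The Marcal1del/del minus yw difference was 0.03 ± 0.21 (SE) at 20 °C (adjusted p = 0.999 from limma) and 0.11 ± 0.21 at 25 °C (adjusted p = 0.982). The RpII2154/FM7 minus yw difference was 0.25 ± 0.21 (adjusted p = 0.600). The direct test of whether the Marcal1del/del effect differed with and without RpII2154/FM7 gave -1.10 ± 0.30 and did not pass the threshold (adjusted p = 0.123), while 0.97% of all probe sets did. Without RpII2154/FM7;Marcal1del/del replicate 2 it was -1.38 and called (adjusted p = 0.0108). No other member was called in that comparison, and 4 members had an unadjusted p under 0.05, beside 10.7% of all probe sets.

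These are whole-ovary samples, in which fewer cells of a type and less RNA per cell cannot be told apart. The list of 9 border and early follicle cell genes averaged 5.88 to 6.05 on the RpII2154/FM7;Marcal1del/del arrays and 6.16 to 6.50 on the RpII2154/FM7 arrays, with 5 genes above the array medians in RpII2154/FM7;Marcal1del/del and 7 in RpII2154/FM7. The 15 hemocyte genes averaged 5.81 to 6.03 in RpII2154/FM7;Marcal1del/del and 6.11 to 6.46 in RpII2154/FM7, and the 16 muscle genes 5.81 to 6.62 in RpII2154/FM7;Marcal1del/del and 6.92 to 7.49 in RpII2154/FM7. The average over 16 eggshell genes was 10.03 to 10.94 in RpII2154/FM7;Marcal1del/del, against 8.31 to 12.76 in RpII2154/FM7 and 12.09 to 12.95 in Marcal1del/del at 20 °C. Between RpII2154/FM7;Marcal1del/del and RpII2154/FM7, 1 of 15 hemocyte genes was called as lower and 1 of 16 germline genes in each direction. No eggshell, muscle, fat body or border cell gene of these lists was called. Of all probe sets, 1.88% were called there and 0.943% as lower. Relative to Marcal1del/del at 20 °C, 2 eggshell genes, 2 hemocyte genes and 1 of 11 fat body genes were called as lower. As higher, 2 germline genes were called, beside 3.85% of all probe sets called in either direction and 1.68% as lower. In that comparison 0 of the 16 eggshell differences were positive, with a median of -1.96, and 1 of the 11 fat body differences was, with a median of -0.76. The 3′ minus 5′ difference of the actin control probe sets, which grows as RNA degrades, was 1.48 to 2.04 in RpII2154/FM7;Marcal1del/del, 1.26 to 1.56 in RpII2154/FM7 and 0.75 to 1.23 elsewhere. For the GAPDH control sets it was 1.25 to 1.76 in RpII2154/FM7;Marcal1del/del, 1.32 to 1.59 in RpII2154/FM7 and 1.05 to 1.34 elsewhere. The part of cell composition and of RNA quality in the differences of tai, Eip63E and the other members was not tested. The same holds for the other pathway genes in these comparisons.

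Eip63E, on arm 3L, encodes a cyclin-dependent kinase whose transcription is induced by ecdysone and which pairs with Cyclin Y. Its probe set read 8.76, 9.21 and 9.28 in RpII2154/FM7;Marcal1del/del, against 9.89, 9.82 and 10.01 in RpII2154/FM7. In Marcal1del/del it read 9.48, 9.54 and 9.67 at 25 °C, against 10.14, 9.97 and 10.16 in yw at 25 °C. At 20 °C it read 9.32, 9.63 and 9.74 in Marcal1del/del, against 10.12, 9.97 and 10.02 in yw. In each of these 3 pairs the arrays with the deletion lay below the arrays without it.

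The fall in RpII2154/FM7;Marcal1del/del relative to RpII2154/FM7 was 0.82 ± 0.13 (SE) on the log2 scale, with a 95% interval of -1.11 to -0.54 and an adjusted p of 0.00429 from limma. It was called without any single array, and was lost with only the 6 arrays of both groups in the fit (adjusted p = 0.0655). The Marcal1del/del minus yw difference was -0.53 ± 0.13 at 25 °C (adjusted p = 0.0719) and -0.47 ± 0.13 at 20 °C (adjusted p = 0.146). No member was called by limma in either comparison, in which 1.23% of all probe sets were called at 25 °C and 1.18% at 20 °C. At an unadjusted p under 0.05 there were 2 members at 25 °C, beside 8.5% of all probe sets, and 3 at 20 °C, beside 7.65%. Groups did not overlap for 2 of the 13 sets at 25 °C, beside 15.8% of all, and for 1, Eip63E, at 20 °C, beside 12%. Against Marcal1del/del at 20 °C, the RpII2154/FM7;Marcal1del/del difference was -0.48 ± 0.13 (adjusted p = 0.0555). It became a call without Marcal1del/del replicate 1 (-0.60, adjusted p = 0.0312) or RpII2154/FM7;Marcal1del/del replicate 3 (-0.58, 0.0455). Whether the Marcal1del/del effect on Eip63E differed with and without RpII2154/FM7 was tested directly and gave -0.35 ± 0.19 (adjusted p = 0.545).

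Because the 3 Marcal1del/del pairs share no arrays, their mean difference was also tested, a contrast chosen after the values of Eip63E were seen. It was -0.61 ± 0.08 (SE) for Eip63E, a factor of 1.53, with a 95% interval of -0.77 to -0.45 and an adjusted p of 0.000148 from limma. Eip63E was the only member called in that contrast, which called 2.91% of all probe sets and 1.61% as lower. Over the alternative settings and single arrays left out, the mean difference for Eip63E stayed between -0.64 and -0.56. The 9 arrays with the deletion, with or without RpII2154/FM7, spanned 8.76 to 9.74 and the 9 arrays without the deletion 9.82 to 10.16. Such a separation, with all 9 deletion arrays lower, was found for 29 of 18769 probe sets (0.155%). The mean difference was -0.31 ± 0.12 for tai (adjusted p = 0.237) and -0.20 ± 0.09 for EcR (adjusted p = 0.288).

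Levels of marker genes on the same arrays stand beside these values. Averaged over the 16 eggshell genes, the level was 12.49 to 12.78 in Marcal1del/del against 10.38 to 11.24 in yw at 25 °C, without overlap, and 12.09 to 12.95 in Marcal1del/del against 9.71 to 12.40 in yw at 20 °C, with overlap. The differences of all 16 were positive at 25 °C (median 1.68), at 20 °C (median 1.03) and as the mean over the 3 pairs (median 0.70), and none of the 16 was called in any of these tests. For RpII2154/FM7;Marcal1del/del minus RpII2154/FM7, 2 of the 16 were positive and the median was -0.76. For muscle genes the mean over the 3 pairs was positive for 1 of 16 (median -0.57) and 1 was called as lower, as was 1 at 20 °C. Of the hemocyte genes 1 was called as higher in Marcal1del/del than in yw at each temperature and over the 3 pairs. Of all probe sets, 1.23% were called at 25 °C, 1.18% at 20 °C and 2.91% over the 3 pairs. The part of these differences in the results on Eip63E, HDAC1 and Npc2a was not tested.

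**Figure D2:**
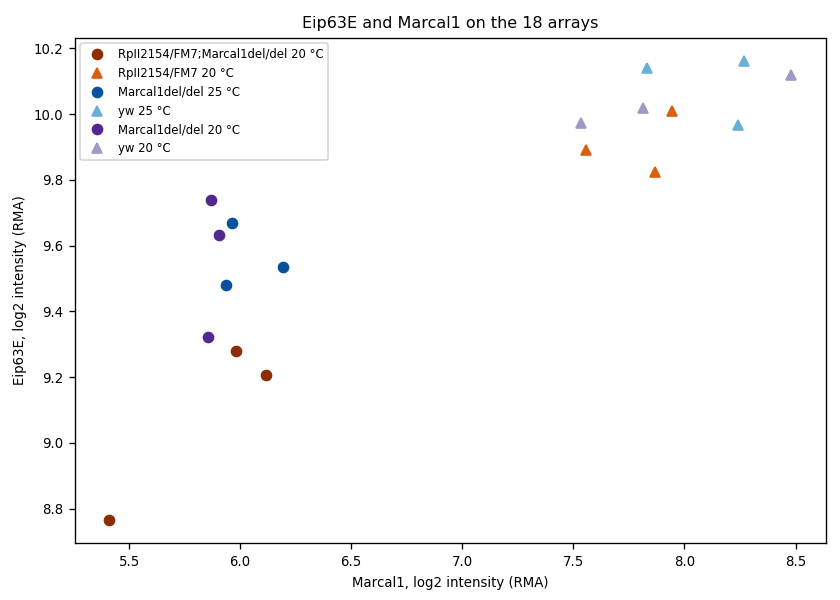
Each point is 1 of 18 arrays, with the log2 RMA intensity of Marcal1 on the horizontal axis and that of Eip63E on the vertical axis, circles for Marcal1del/del genotypes and triangles for the others. The 9 circles lie at 8.76 to 9.74 for Eip63E and the 9 triangles at 9.82 to 10.16.

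A second probe set is annotated both to Eip63E and to CG10038 and was not counted as a member. It read 10.05 to 10.15 in RpII2154/FM7;Marcal1del/del, against 9.85 to 10.06 in RpII2154/FM7, a difference of 0.13 ± 0.12 (SE, adjusted p = 0.598 from limma). In Marcal1del/del it read 9.82 to 9.93, against 9.86 to 10.23 in yw, at 25 °C, and in Marcal1del/del 9.78 to 10.05, against 9.76 to 10.17 in yw, at 20 °C. Its mean difference over the 3 pairs was -0.03 ± 0.07 (adjusted p = 0.879), so the lower level of Eip63E was seen with the set named for that gene alone. CycY, which encodes the cyclin partner of the kinase, differed by -0.00 ± 0.09 between RpII2154/FM7;Marcal1del/del and RpII2154/FM7 (adjusted p = 0.995). Its Marcal1del/del minus yw difference was 0.33 ± 0.09 at 25 °C (adjusted p = 0.136) and 0.24 ± 0.09 at 20 °C (adjusted p = 0.440).

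**Figure D3:**
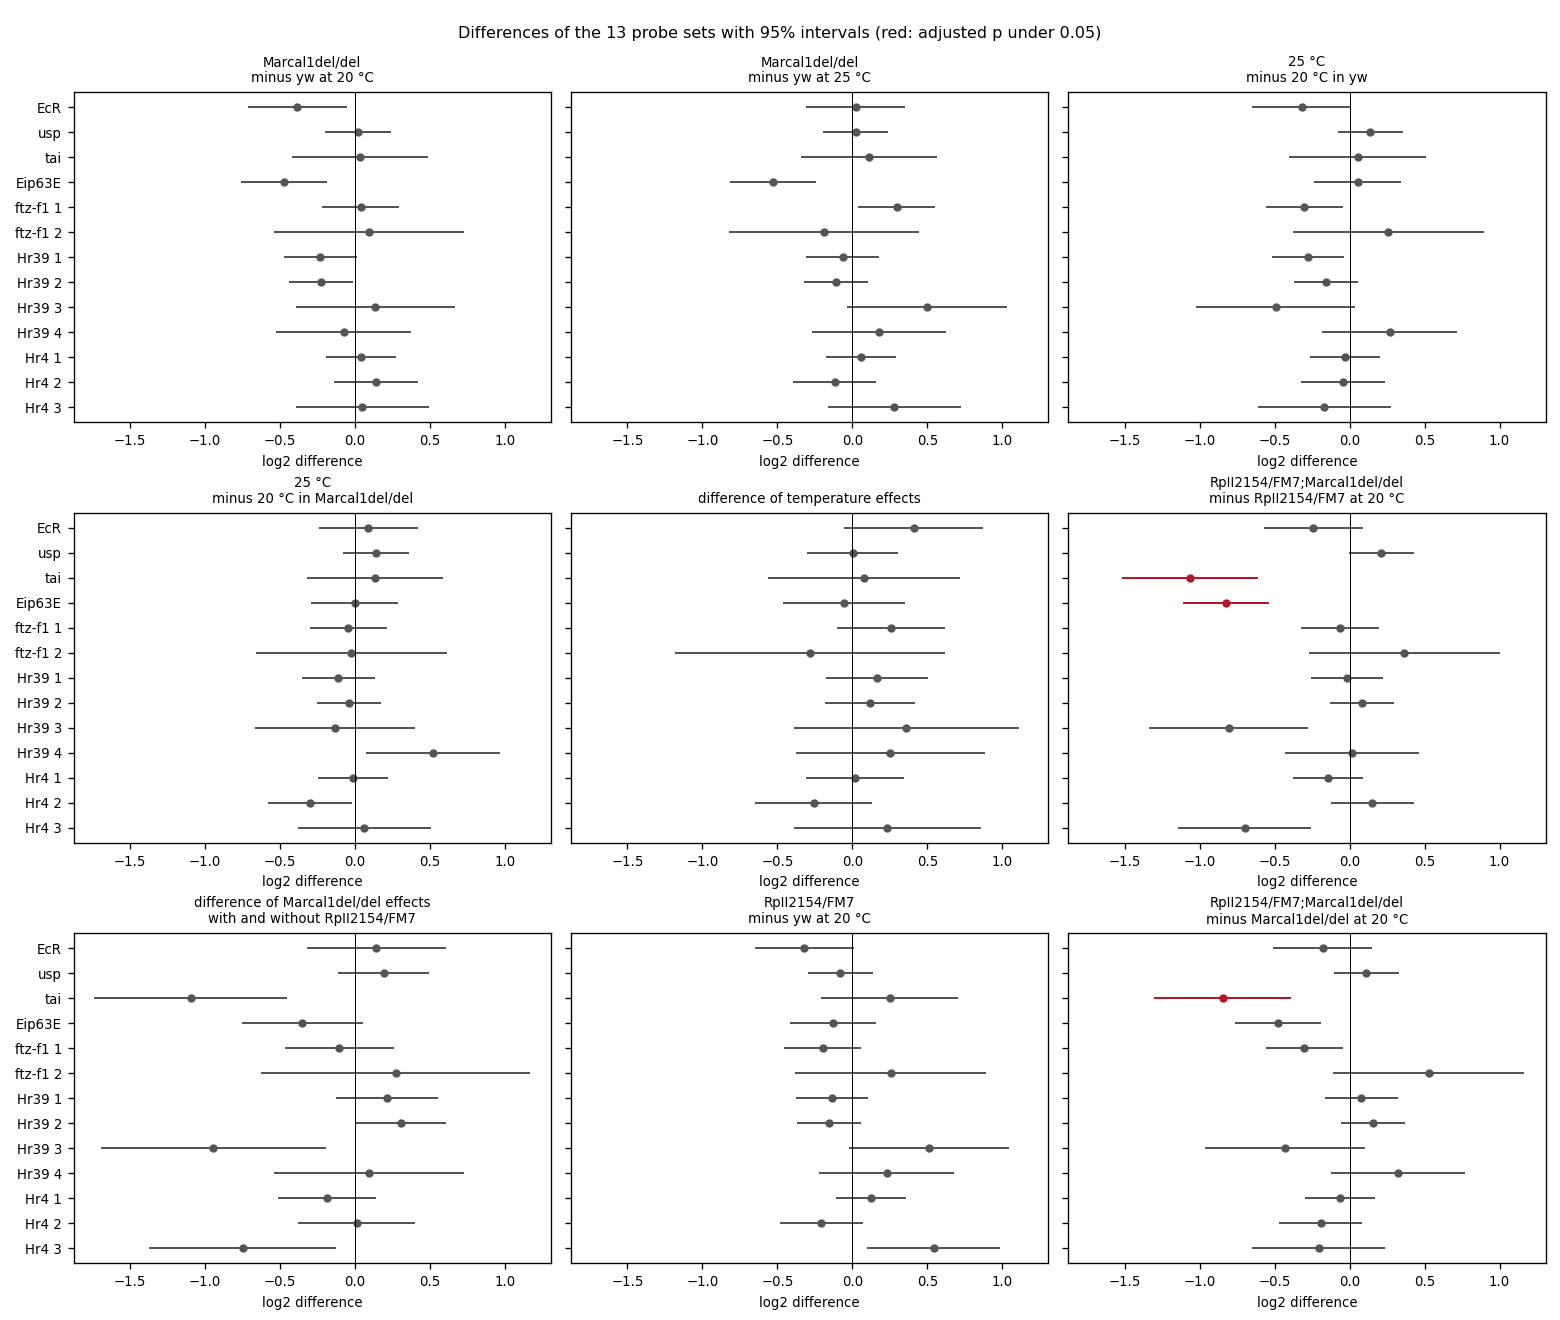
Log2 differences (horizontal axes) of the 13 probe sets in 9 comparisons, with points for estimates, lines for 95% intervals and red for an adjusted p under 0.05. The 2 sets of ftz-f1, 4 of Hr39 and 3 of Hr4 are numbered by falling mean. Red marks tai and Eip63E for RpII2154/FM7;Marcal1del/del minus RpII2154/FM7 and tai for RpII2154/FM7;Marcal1del/del minus Marcal1del/del.

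The gene ftz-f1, on arm 3L, encodes an orphan nuclear receptor that gives tissues competence to respond to pulses of ecdysone. The brighter of its 2 probe sets read 10.01, 10.38 and 10.29 in RpII2154/FM7;Marcal1del/del and 10.33, 10.30 and 10.26 in RpII2154/FM7. It read 10.34, 10.45 and 10.67 in Marcal1del/del against 10.12, 10.27 and 10.17 in yw at 25 °C, without overlap. At 20 °C it read 10.33, 10.69 and 10.57 in Marcal1del/del and 10.44, 10.63 and 10.41 in yw, where the ranges overlapped. The difference at 25 °C was 0.30 ± 0.12 (SE, adjusted p = 0.438 from limma) and that at 20 °C 0.04 ± 0.12 (adjusted p = 0.999). In yw the difference of 25 minus 20 °C was -0.30 ± 0.12 (adjusted p = 0.558), again with no overlap of the arrays. The other set ranged from 8.76 to 9.92 over the 18 arrays with a pooled SD of 0.41, and its differences ran from -0.28 to 0.53 with none called.

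Hr39, on arm 2L, encodes a nuclear receptor related to that of ftz-f1 and is required for the secretory glands of the female reproductive tract. The brightest of its 4 probe sets read 8.09, 8.25 and 8.37 in RpII2154/FM7;Marcal1del/del and 8.32, 8.21 and 8.24 in RpII2154/FM7. It read 8.14, 7.98 and 8.02 in Marcal1del/del and 7.97, 8.23 and 8.14 in yw at 25 °C, and 7.98, 8.16 and 8.35 in Marcal1del/del and 8.51, 8.26 and 8.41 in yw at 20 °C. In yw all 3 arrays at 25 °C lay below all 3 at 20 °C, a difference of -0.28 ± 0.11 (SE, adjusted p = 0.567 from limma). That of the second set was -0.16 ± 0.10 (adjusted p = 0.793), and its values spanned 6.91 to 7.34 over all arrays.

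The sets of Hr39 did not give 1 common value between RpII2154/FM7;Marcal1del/del and RpII2154/FM7. The third set read 5.11, 5.69 and 5.30 in RpII2154/FM7;Marcal1del/del against 5.91, 6.48 and 6.15 in RpII2154/FM7, without overlap, a difference of -0.81 ± 0.25 (SE) that was not called (adjusted p = 0.105 from limma). For the first and second sets the differences were -0.02 ± 0.11 (adjusted p = 0.953) and 0.08 ± 0.10 (adjusted p = 0.699). The fourth set lay below the array median on all 18 arrays, at 2.78 to 3.91, so it gives little measure of the gene. Which transcripts each set detects is unknown here.

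The X-linked gene Hr4 encodes a nuclear receptor known as a repressor in the hormone's early response. Its 3 probe sets were near or below the array medians: the first lay above them on 15 of 18 arrays, the second on 4 and the third on 1. The first read 4.28, 4.22 and 4.15 in RpII2154/FM7;Marcal1del/del and 4.27, 4.51 and 4.31 in RpII2154/FM7. It read 4.09, 4.32 and 4.39 in Marcal1del/del and 4.30, 4.24 and 4.09 in yw at 25 °C, and 4.18, 4.44 and 4.21 in Marcal1del/del and 4.27, 4.13 and 4.32 in yw at 20 °C. Its 6 group means lay within 4.21 to 4.36, and neighbours in their order overlapped. The third and dimmest set read 3.08, 3.02 and 3.37 in RpII2154/FM7;Marcal1del/del against 3.48 to 4.30 in RpII2154/FM7, a difference of -0.70 ± 0.21 (SE, adjusted p = 0.0935 from limma). Only RpII2154/FM7 replicate 1, at 4.30, put that set above an array median.

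**Figure D4:**
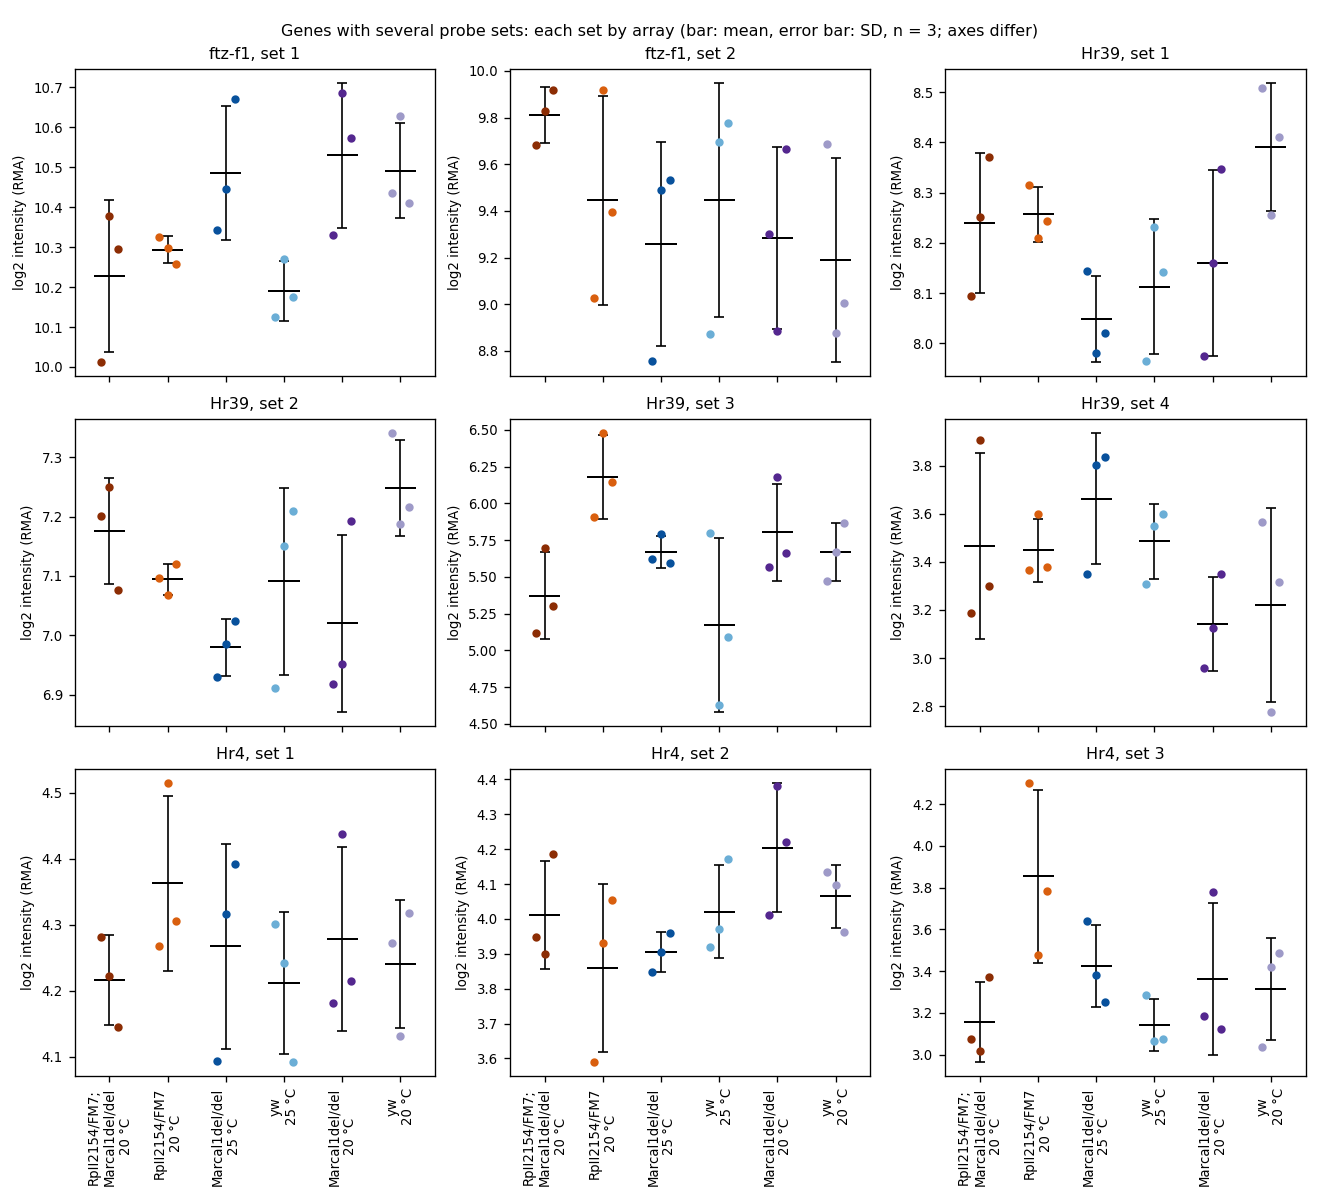
The log2 RMA intensity (vertical axes, which differ) of each probe set of ftz-f1, Hr39 and Hr4 is plotted by group, with sets of a gene numbered by falling mean, points for arrays, long bars for means and error bars for SD (n = 3). The third set of Hr39 lies at 5.11 to 5.69 in RpII2154/FM7;Marcal1del/del and at 5.91 to 6.48 in RpII2154/FM7, while the 2 brighter sets of the gene overlap between these groups.

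Temperature moved none of the 13 probe sets past the threshold. For 25 minus 20 °C, 0 members were called in Marcal1del/del, where limma called 0.202% of all probe sets, and 0 in yw, where it called 0.256%. At an unadjusted p under 0.05 there were 2 members in each genotype, against 4.25% and 7.43% of all probe sets. The difference between the temperature effects of the genotypes called 0 members by limma and 0.0107% of all probe sets, and 0 members had an unadjusted p under 0.05, beside 1.57% of all. In yw the arrays at 25 °C and 20 °C did not overlap for 2 of the 13 sets, beside 11% of all. Member differences ran from -0.30 to 0.52 in Marcal1del/del and from -0.49 to 0.27 in yw.

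RpII2154/FM7 compared with yw at 20 °C called 0 members by limma, 1 at an unadjusted p under 0.05 (17.2% of all probe sets), and 2.76% of all probe sets after adjustment. Groups did not overlap for 4 of the 13 sets, beside 19.6% of all probe sets. Over the members the differences ran from -0.32 for EcR to 0.54 for the dimmest Hr4 set, with a median of -0.08 beside -0.00 over all probe sets. Between RpII2154/FM7;Marcal1del/del and RpII2154/FM7, groups did not overlap for 5 of 13 sets, beside 22.4% of all, and the median absolute difference was 0.21 beside 0.15.

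The other genes of the pathway were followed through 5 lists, covering 76 measured genes of 88 listed, each by its probe set with the highest mean. Between RpII2154/FM7;Marcal1del/del and RpII2154/FM7, 0 of the 76 rose and 3 fell, in a comparison that called 1.88% of all probe sets and 0.943% as lower. Of these, 2 belonged to the 18 genes of synthesis and turnover, whose median difference was -0.21 beside 0.02 over all probe sets. One is nvd, which encodes neverland, the oxygenase of the first step from cholesterol. Its level was 5.00, 4.74 and 4.56 in RpII2154/FM7;Marcal1del/del, against 5.38, 5.51 and 5.96 in RpII2154/FM7. It fell by 0.85 ± 0.19 (SE, adjusted p = 0.0301 from limma). The level of nvd was also low at 25 °C, at 4.73, 4.82 and 5.03 in yw and 4.73, 5.07 and 4.97 in Marcal1del/del. Its difference of 25 minus 20 °C was -0.71 ± 0.19 in yw (adjusted p = 0.178) and -0.76 ± 0.19 in Marcal1del/del (adjusted p = 0.211). Neither was called. The other is dib, which encodes a later hydroxylase of the chain. Its level was 4.49, 4.72 and 4.72 in RpII2154/FM7;Marcal1del/del, against 5.25, 4.99 and 5.07 in RpII2154/FM7, and it fell by 0.46 ± 0.10 (adjusted p = 0.0301). In RpII2154/FM7;Marcal1del/del, nvd and dib lay not far above the array medians of 4.08 to 4.12. This limits how well the size of both falls is known. The third was Hr38, a nuclear receptor gene measured below the array medians, which fell by 0.43 ± 0.10 (adjusted p = 0.0298). Only the brighter of its 2 probe sets was examined.

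Each of these 3 calls was lost without some single arrays: that of nvd without RpII2154/FM7 replicate 3 (adjusted p = 0.0875) or RpII2154/FM7;Marcal1del/del replicates 2 or 3 (0.0806 and 0.0990). That of dib held in 1 of 6 fits that left out 1 array, as did that of Hr38. With only the 6 arrays of both groups, the adjusted p was 0.0870 for nvd, 0.139 for dib and 0.126 for Hr38.

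Against Marcal1del/del at 20 °C, 4 of the 76 rose and 2 fell in RpII2154/FM7;Marcal1del/del, in a comparison that called 3.85% of all probe sets and 1.68% as lower. The lower levels of the eggshell and fat body lists given above were measured on the same arrays. That fat body list includes the yolk protein genes Yp1, Yp2 and Yp3, so it is not a measure of fat body tissue alone. Oatp74D, which encodes the importer that brings ecdysone into cells, read 7.22, 6.89 and 7.06 in RpII2154/FM7;Marcal1del/del, against 6.39, 5.34 and 5.97 in Marcal1del/del. It rose by 1.15 ± 0.23 (SE, adjusted p = 0.0111 from limma). At 20 °C it read 6.83, 6.68 and 6.16 in yw and 6.54, 5.88 and 6.41 in RpII2154/FM7. Marcal1del/del minus yw at 20 °C was -0.65 ± 0.23 (adjusted p = 0.361). The Marcal1del/del effects on Oatp74D with and without RpII2154/FM7 differed by 1.43 ± 0.33, which was not called (adjusted p = 0.0524). In RpII2154/FM7;Marcal1del/del minus Marcal1del/del at 20 °C, nvd fell by 0.92 ± 0.19 (adjusted p = 0.0126), with 5.33, 5.93 and 5.80 on the Marcal1del/del arrays. CoRest, which encodes a corepressor, rose by 0.58 ± 0.12 (adjusted p = 0.0159). Below the array medians, knrl rose by 0.44 ± 0.11 (adjusted p = 0.0423) and chinmo fell by 0.64 ± 0.17 (adjusted p = 0.0459). CoRest and chinmo have 3 probe sets each, of which only the brightest was examined. The Oatp74D call was lost without Marcal1del/del replicate 2 (difference 0.87, adjusted p = 0.0538) or RpII2154/FM7;Marcal1del/del replicate 1 (1.07, 0.0501). Calls on knrl and chinmo were lost without any 1 of the 6 arrays, that on CoRest without Marcal1del/del replicate 2 (0.0860) or RpII2154/FM7;Marcal1del/del replicate 3 (0.0600), and that on nvd without the same arrays (0.0702 and 0.0563).

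HDAC1, which encodes a histone deacetylase that acts with corepressors of nuclear receptors, changed in Marcal1del/del at both temperatures, and these calls were made in every alternative fit. It read 9.43, 9.48 and 9.54 in Marcal1del/del, against 10.10, 10.45 and 10.25 in yw, at 25 °C. At 20 °C it read 9.38, 9.48 and 9.66 in Marcal1del/del, against 10.31, 10.13 and 10.15 in yw. With RpII2154/FM7 the order was the opposite, at 10.45, 10.36 and 10.36 in RpII2154/FM7;Marcal1del/del against 10.01, 10.06 and 9.97 in RpII2154/FM7. The HDAC1 level fell by 0.79 ± 0.10 (SE) in Marcal1del/del relative to yw at 25 °C (adjusted p = 0.000261 from limma) and by 0.68 ± 0.10 at 20 °C (adjusted p = 0.00099). Between RpII2154/FM7;Marcal1del/del and RpII2154/FM7 the difference was 0.38 ± 0.10 and was not called (adjusted p = 0.0603). The test of whether the Marcal1del/del effect differed with and without RpII2154/FM7 gave 1.07 ± 0.14 (adjusted p = 0.000544), and HDAC1 was the 1 gene of 76 called there, beside 0.97% of all probe sets. In that same test the eggshell genes had a median of -1.83, with 1 of 16 positive and none called, and 1 germline gene was called as higher. Relative to Marcal1del/del at 20 °C, HDAC1 rose by 0.88 ± 0.10 in RpII2154/FM7;Marcal1del/del (adjusted p = 6.41e-05), a comparison that shares the Marcal1del/del arrays with the one above.

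In Marcal1del/del relative to yw, HDAC1 was the 1 gene of 76 called at 20 °C, beside 1.18% of all probe sets. At 25 °C, where 1.23% of all probe sets were called, the other was Npc2a, which encodes a sterol transport protein of the ecdysone precursor supply and fell by 0.48 ± 0.11 (SE, adjusted p = 0.0353 from limma). That call was lost without any 1 of the 6 arrays of these groups (adjusted p between 0.0655 and 0.193). RpII2154/FM7 relative to yw gave 1 call, beside 2.76% of all probe sets, a rise of knrl by 0.49 ± 0.11 (adjusted p = 0.0314), which was lost without yw replicates 2 or 3 or RpII2154/FM7 replicate 2 (0.0963, 0.131 and 0.0987). In that comparison 15 of 16 muscle differences were positive (median 0.87) with none called, and 2 hemocyte genes were called as higher and 1 as lower. None of the 76 was called by limma for temperature in either genotype. The 15 other response genes, among them br, Eip93F and Blimp-1, and the 7 juvenile hormone genes had 0 calls in all 9 comparisons. That holds for the probe set with the highest mean of each gene. Among these genes, Eig71Ea, ImpE1, ImpE2, jhamt and Jhe had means below the array medians in every group. Their lack of calls therefore says little about a response. Further sets of genes with several, such as br (6 sets) and Eip93F (2 sets), were not examined.

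The mean difference over the 3 Marcal1del/del pairs, the contrast added for Eip63E, called 3 of the 76 genes, 1 as higher and 2 as lower, beside 2.91% of all probe sets. Npc2a fell by 0.30 ± 0.06 (SE, adjusted p = 0.0127 from limma), and this call was made in all 24 alternative fits (adjusted p between 0.00221 and 0.0346). Its differences were -0.48 at 25 °C, -0.36 at 20 °C and -0.05 with RpII2154/FM7. HDAC1 fell by 0.36 ± 0.06 (adjusted p = 0.00134), also called in all 24, as the mean of 2 negative differences and the positive one with RpII2154/FM7. Hr96, a nuclear receptor gene with a role in lipid metabolism, rose by 0.22 ± 0.06 (adjusted p = 0.0490). Its call was made in 6 of the 24, and in 3 of the 18 that left out 1 array.

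**Figure D5:**
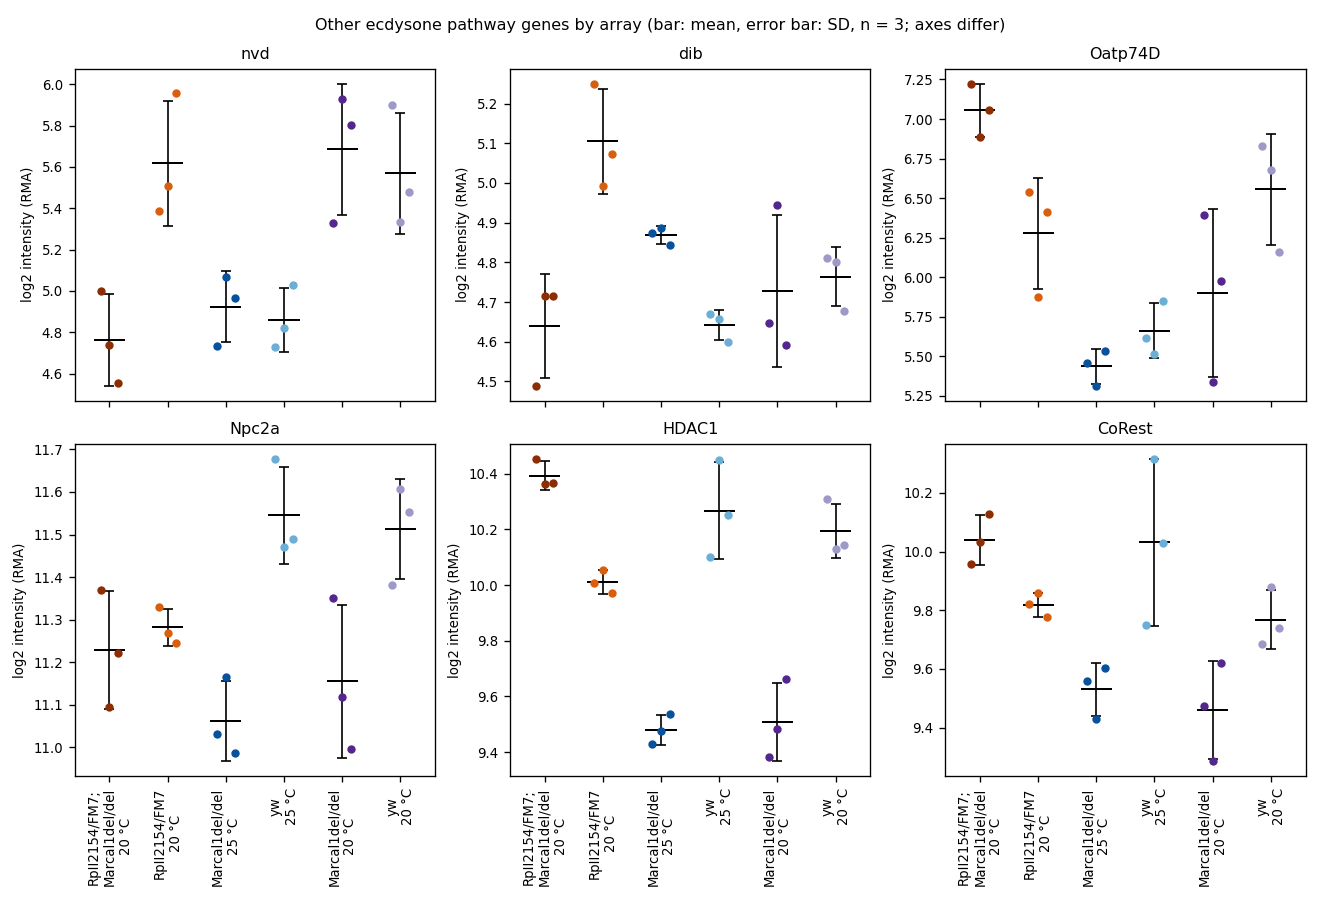
The log2 RMA intensity (vertical axes, which differ) of 6 other pathway genes is plotted by group, with points for arrays, long bars for means and error bars for SD (n = 3). HDAC1 lies at 9.38 to 9.66 in Marcal1del/del without RpII2154/FM7 and at 10.10 to 10.45 in yw over both temperatures. In RpII2154/FM7;Marcal1del/del, HDAC1 lies at 10.36 to 10.45 and Oatp74D at 6.89 to 7.22.

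Among 7440 other genes whose mean over the arrays lay above the median of all probe sets, the pattern over the 18 arrays most like that of Eip63E was that of Orai (Pearson correlation 0.92), followed by CG7970 (0.86) and Marcal1 itself (0.86). With each group's mean removed these correlations were 0.70, 0.45 and 0.48. The genes most like tai were CG9586 (0.85), Idh3g (0.84) and bys (0.81), and with group means removed 0.71, 0.51 and 0.56. The arrays share genotype groups and normalization, so these correlations describe likeness over these samples only.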

How the data were processed

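The authors deposited RMA-normalized log2 intensities of each probe set on each array, per the submitters' processing notes. The version of that software is not given in the sources used here. All 18952 probe sets were read, 183 control sets were set aside and 18769 were tested without a filter on low values. Platform annotation named 1 gene for 13646 sets, several for 402 and none for 4721, with symbols updated through gene identifiers of NCBI's Release 6 annotation, from which chromosome arms were taken. A non-member gene is represented by its set with the highest mean.

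Groups follow the sample titles, although 2 of the RpII2154/FM7 arrays (replicates 2 and 3) have FM8 or FM9 in another field. limma (version 3.58.1, R 4.3.3) fitted 6 group means on 18 arrays (residual degrees of freedom 12, prior 3.85), with 9 contrasts, 2-sided tests and Benjamini-Hochberg adjustment within each. Equal replicate numbers were not treated as pairs. In 0 of 15 pairs of groups did every deviation from the group means correlate over 0.1 (-0.33 to 0.47). With 3 arrays per group this rule cannot exclude pairing. For yw and Marcal1del/del at 25 °C the correlations were 0.47, 0.07 and 0.30. A fit with the replicate number as a block is given below. Precision is limited by 3 arrays per group. The members, lists, tests and alternatives were chosen with earlier results of these data known. Named are all member sets, values on every array being given for called sets and for the brightest set of each other member, and every gene of the lists called in the 9 comparisons; genes called for the added mean over 3 pairs were named after their values were seen. The fit was tested on simulated data. Alternatives were a fit of the compared groups only, leaving out 3 arrays or single arrays, a trended robust variance, array weights, a filter on the median, centring and a replicate block.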

Additional observations from a re-analysis of the deposited data

Results flagged for a closer look

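HDAC1, the histone deacetylase gene of the cofactor list, fell with the Marcal1 deletion without RpII2154/FM7, and the difference between its effects with and without RpII2154/FM7 passed its own test: it was 1.07 ± 0.14 (SE) on the log2 scale, with an adjusted p of 0.000544 from limma. The Marcal1del/del effect was 0.38 with RpII2154/FM7, which was not called (adjusted p = 0.0603), and -0.68 without it, which was called (adjusted p = 0.00099), and the arrays of the groups did not overlap in either pair. The difference lay between 0.99 and 1.14 in all 19 alternative fits, which left out 1 array in 12 of them, and was called in each. The arrays with RpII2154/FM7 form their own array series, so series and RpII2154/FM7 cannot be told apart.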

How the results depend on the processing

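Counts of member probe sets called changed as follows. With only the arrays of the groups compared, RpII2154/FM7;Marcal1del/del minus RpII2154/FM7 gave 0 (2 in the reported fit) and RpII2154/FM7;Marcal1del/del minus Marcal1del/del gave 0 (1 in the reported fit). The last comparison gave 0 with each array centred on its median, 2 with a trended robust variance and 2 with the filter on the median, tai and Eip63E, and fewer sets were tested under that filter. In Marcal1del/del minus yw at 25 °C, Eip63E made the count 1 (0 in the reported fit) with the trended robust variance and with the filter. Array weights gave 3 there, 1 at 20 °C, 6 for 25 minus 20 °C in yw and 1 for the difference of Marcal1del/del effects. Their estimate stopped before its tolerance was met. Over all probe sets, array weights also called more than the reported fit in each of these comparisons, as given below. These higher numbers are therefore not particular to the member counts. With 1 array left out the counts ranged from 1 to 3 for RpII2154/FM7;Marcal1del/del minus RpII2154/FM7, from 0 to 1 against Marcal1del/del, from 0 to 1 for the difference of Marcal1del/del effects and from 1 to 2 for the mean over 3 pairs. The highest of these came without RpII2154/FM7 replicate 2 in the first, where a set of Hr4 was added, and without RpII2154/FM7;Marcal1del/del replicate 2, where tai was added, in the last pair (adjusted p = 0.0108 and 0.0411). All called differences of tai and Eip63E kept their sign in every fit.

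Uncalled differences near 0 changed sign. That of temperature effects on tai was 0.08, and it was -0.11 without the 3 arrays that stand apart, -0.12 with array weights and -0.054 to 0.24 without single arrays. Without single arrays, tai ranged from -0.069 to 0.17 for Marcal1del/del minus yw at 20 °C, from -0.011 to 0.27 at 25 °C and from -0.061 to 0.19 for 25 minus 20 °C in yw. Eip63E ranged from -0.12 to 0.085 for 25 minus 20 °C in Marcal1del/del and from -0.18 to 0.032 for the difference of temperature effects. The causes were not tested.

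With the replicate number as a block, tai in RpII2154/FM7;Marcal1del/del minus Marcal1del/del lost its call (adjusted p = 0.0546) and Eip63E gained one (-0.48, adjusted p = 0.0483), and the other member calls were as reported. Over all probe sets the block moved no count by more than 1.5 times. Counts over all probe sets did move by more with only the arrays compared: 134 beside 221 for Marcal1del/del minus yw at 20 °C, 16 beside 38 and 2 beside 48 for 25 minus 20 °C in Marcal1del/del and in yw, 153 beside 352 for RpII2154/FM7;Marcal1del/del minus RpII2154/FM7, and 137 beside 518 for RpII2154/FM7 minus yw. Without the 3 arrays that stand apart they were 366 beside 230 for Marcal1del/del minus yw at 25 °C, 385 beside 221 at 20 °C, 64 and 788 for temperature, 13 beside 2 for the difference of temperature effects, 743 beside 352, 1271 beside 722 against Marcal1del/del and 349 beside 182 for the difference of Marcal1del/del effects. Of 18769 probe sets, array weights called 1233 and 1270 for Marcal1del/del minus yw, 157 and 5109 for temperature and 12 and 275 for the differences of effects. They also gave 220 beside 352, 2175 beside 518 and 1378 beside 547 for the mean over 3 pairs. With 1 array left out, RpII2154/FM7;Marcal1del/del minus RpII2154/FM7 called 146 to 362 and RpII2154/FM7;Marcal1del/del minus Marcal1del/del 333 to 582. Sets near the array medians, among them all those of Hr4, have signal too low to bound small differences.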
